A study of Mus musculus with 7 samples.

Results

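The Iroquois homeobox genes of the mouse, Irx1 to Irx6, were followed in sorted pancreatic alpha cells with and without an intact Nkx2-2 gene. They were taken from the deposited count table by gene symbol, which gave 6 genes of 55536. The control libraries (n = 4) came from mice of the genotype Nkx2.2+/+;Gcg-iCre;Rosa26:tdTomato, and the knockout (KO) libraries (n = 3) from Nkx2.2fl/fl;Gcg-iCre;Rosa26:tdTomato, on the strain that the series text writes as C57B1/6J, which also writes the reporter as Rosa25:tdTomato. All mice therefore carried Gcg-iCre, a Cre expressed under glucagon control, together with a red reporter, and the Nkx2-2 alleles alone differ by label. Deletion and sorting both depend on glucagon-driven Cre, and neither the age of the mice nor the number of mice behind a library is given in the sources used here, so the p-values measure only the spread between these libraries. The question of the study, as its series text puts it, is which genes NKX2.2 regulates in alpha cells in vivo.

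Iroquois genes encode transcription factors of the TALE homeobox class, in which extra residues lengthen the loop between the first and second helices of the homeodomain. In mammals they lie in a pair of clusters that arose from one ancestral cluster by duplication, and they are known for patterning the heart, limb and nervous system. In the pancreas Irx1 and Irx2 are known as alpha cell genes, switched on in the endocrine lineage downstream of the progenitor factor Neurog3.

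Both clusters are placed here on the mouse assembly GRCm38 (mm10) with the GENCODE M21 annotation. Irx1 (ENSMUSG00000060969, chromosome 13, 71957921 to 71963723, minus strand), Irx2 (ENSMUSG00000001504, chromosome 13, 72628820 to 72634198, plus strand) and Irx4 (ENSMUSG00000021604, chromosome 13, 73260479 to 73269608, plus strand) span 1.31 Mb. Irx3 (ENSMUSG00000031734, chromosome 8, 91798525 to 91802067, minus strand), Irx5 (ENSMUSG00000031737, chromosome 8, 92357625 to 92376286, plus strand) and Irx6 (ENSMUSG00000031738, chromosome 8, 92674288 to 92680956, plus strand) span 0.88 Mb. The gaps between neighbours are wide, from 298 kb between Irx5 and Irx6 to 665 kb between Irx1 and Irx2.

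The 6 genes resemble each other most in the homeobox, the exon stretch that encodes the DNA-binding domain, and this bears on whether counts of one gene can be told from those of another. The best conserved ungapped 60 coding bases in an alignment of the 6 coding sequences lie in the homeobox and are printed 5′ to 3′ on the coding strand, with capitals at bases that differ from Irx1.
Irx1: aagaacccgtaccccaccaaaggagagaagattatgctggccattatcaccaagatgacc
Irx2: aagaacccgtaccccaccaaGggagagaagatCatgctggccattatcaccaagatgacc
Irx4: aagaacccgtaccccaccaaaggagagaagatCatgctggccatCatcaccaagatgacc
Irx3: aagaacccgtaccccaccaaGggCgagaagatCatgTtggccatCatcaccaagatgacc
Irx5: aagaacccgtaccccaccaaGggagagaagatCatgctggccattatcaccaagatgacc
Irx6: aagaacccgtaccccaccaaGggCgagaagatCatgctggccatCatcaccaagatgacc

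These windows are exonic in each gene, at chr13:71960052-71960111 (minus strand) in Irx1, chr13:72630733-72630792 in Irx2, chr13:73267592-73267651 in Irx4, chr8:91800556-91800615 (minus strand) in Irx3, chr8:92359696-92359755 in Irx5 and chr8:92677305-92677364 in Irx6. All 6 genes share 55 of the 60 bases. Irx2 of the chromosome 13 cluster and Irx5 of the chromosome 8 cluster are identical here, and the longest exact run that their transcripts share is 65 bases. Across whole coding sequences each gene was closest to a gene of the other cluster: Irx1 to Irx3 (58.2% of aligned bases), Irx2 to Irx5 (60.7%) and Irx4 to Irx6 (57.9%). Irx1 and Irx2, the pair from 1 cluster that the counts turn on, shared 51.4% of aligned coding bases and an exact run of at most 32 bases. Read length is not given in the sources used here.

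The libraries held 45483504 to 72456557 counts, and 84.4% to 88.9% of counts from 1 to 10 were even in each. Libraries are named C1 to C4 (controls), K1, K2 and Kx (KO), where Kx is a KO column whose number no KO title has and which the plots call unnumbered. C4 stood apart, with a count for 31024 genes against 23150 to 25873 in the other 6 libraries. No exon of Irx1, Irx2, Irx4 or Irx5 overlaps an opposite-strand exon, and 4.49% of the exon length of Irx3 and 4.51% of that of Irx6 does. For Nkx2-2 it is 9.67%, and the strand setting of the counting is not given in the sources used here. For Nkx2-2, the targeted gene, normalized counts lay between 8596 and 12297 in controls and between 7534 and 7758 in the KO group. Its KO over control change was -0.45 log2 units (SE 0.13), at an adjusted p of 0.0218 in DESeq2 and 0.152 in edgeR, so the KO libraries kept 73.2% of the control level. Nkx2-2 was called in 2 of the 7 fits that each left out 1 library. Normalized counts are counts divided by DESeq2 size factors, and a call is a Benjamini-Hochberg adjusted p under 0.05 over all genes.

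Alpha cells of both genotypes expressed Irx1 and Irx2 and hardly any of the other members. To compare genes of different length, counts were scaled to CPM, the usual share of the library total, and divided by the exon length in kb. On this scale the control level was 73.0 ± 3.65 (SD, n = 4) CPM per kb for Irx1 and 55.2 ± 1.01 (SD, n = 4) for Irx2. In KO libraries it was 46.7 ± 11.0 (SD, n = 3) for Irx1 and 41.2 ± 7.06 (SD, n = 3) for Irx2. Irx1 stood at position 185 and Irx2 at position 274 of 22028 protein-coding genes ordered by this level. The lowest level of either gene in any library was 34.6 and the highest level of Irx3, Irx4, Irx5 or Irx6 in any library was 0.0727, a 476-fold gap. Irx1 lay above Irx2 in every control on this scale, with 68.0 to 75.8 against 54.0 to 56.4. The order was the same in K1 (45.1 against 40.2), K2 (58.4 against 48.6) and Kx (36.5 against 34.6). With the longest transcript as the length the control means were 80.6 and 69.0. On that length Irx1 lay above Irx2 in K2 (64.5 against 60.8). It lay below Irx2 in K1 (49.8 against 50.3) and Kx (40.3 against 43.3), so the order in KO libraries depends on the length used.

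Irx4, the third member of the chromosome 13 cluster and a ventricular heart factor, had 2 counts in C4 and 0 in the other 6 libraries. Irx3, known from neural patterning and from its link to variants within Fto, had 2 counts in C2, 2 in C4 and 0 elsewhere. Irx5, its neighbour, had 6 counts in C4 and 0 elsewhere. Irx6 had 2 counts in C4, 2 in K2 and 16 in Kx. Of these 28 values 21 were 0, and the 7 above 0 were all even. Since most low counts were even, limits were set with 2 counts taken as 1 fragment, so that a count of 0 allows up to 6 counts (3 fragments). Of the 28 values 1, the 16 counts of Irx6 in Kx, was above 6. At these depths 6 counts correspond to between 0.0246 and 0.0506 CPM per kb for these 4 genes. Expression of Irx3, Irx4, Irx5 and Irx6 was thus not detectable in most libraries, DESeq2 gave them no adjusted p, and no fold change is given for them. Intervals and floors cover counting error only.

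The chromosome 8 cluster supplied 30 of all Iroquois counts and the chromosome 13 cluster 124548. Per library its share was 0% in C1, C3 and K1, with upper limits of 0.0423%, 0.0426% and 0.0536% from two-sided 95% Clopper-Pearson intervals on halved counts. It was 0.0107% in C2 (interval 0.000271% to 0.0596%), 0.0119% in K2 (0.000301% to 0.0663%), 0.0372% in C4 (0.0121% to 0.0868%) and 0.117% in Kx (0.0505% to 0.230%), by the same method. The last was the highest share and came from Irx6 alone. Irx2 and Irx5 are identical in the window printed above, and Irx2 reached 13054 counts in C4, where Irx5 had 6. How reads that match both genes were counted is not given in the sources used here, so these counts cannot show where such reads went.

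**Figure D1:**
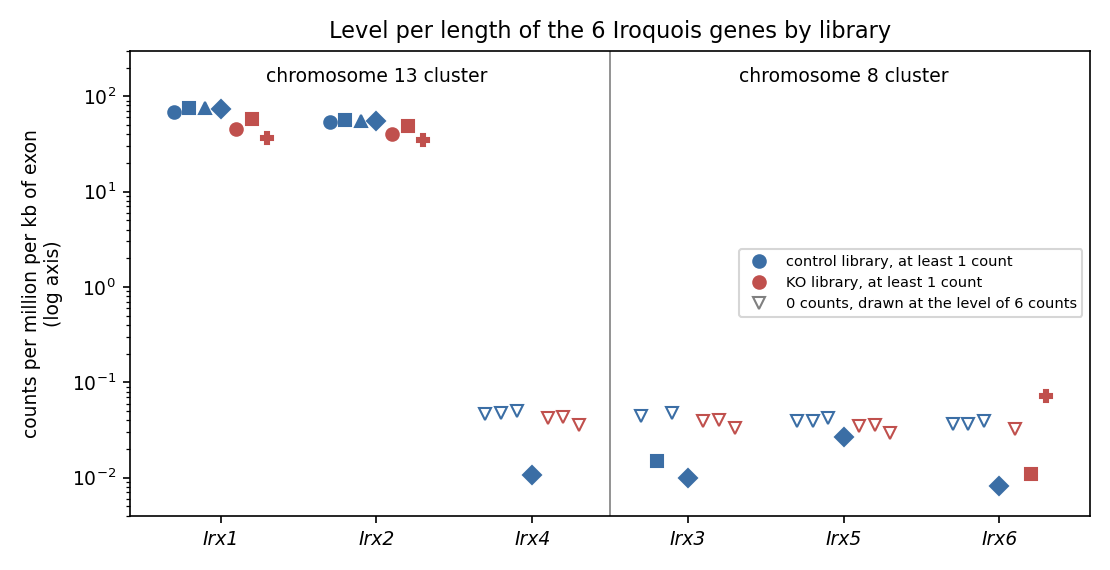
Level of each Iroquois gene in every library, as CPM per kb of exon on a log axis, with controls in blue and KO libraries in red; an open triangle marks a library with 0 counts, drawn at the level of 6 counts. Irx1 and Irx2 lie between 34.6 and 75.8, and no value of the other 4 genes exceeds 0.0727.

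Irx1 fell in the KO libraries. Its normalized counts were 9920, 11382, 11812 and 9985 in C1 to C4, against 6354 in K1, 8487 in K2 and 4629 in Kx. Every KO library lay below every control, and the KO libraries were spread more widely than the controls. The mean went from 10775 ± 966 (SD, n = 4) to 6490 ± 1933 (SD, n = 3), which is 60.2% of the control level. Irx1 changed by -0.73 log2 units (SE 0.18; adjusted p 0.00305, DESeq2). The quasi-likelihood test of edgeR gave -0.73 with an adjusted p of 0.127, so Irx1 was not called there. Without K1 the adjusted p of Irx1 in DESeq2 was 0.0513, with a log2 fold change of -0.72, and without C4 it was 0.000483 at -0.77.

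Irx2 fell as well. The normalized counts of Irx2 were 9881, 10646, 10843 and 9434 in C1 to C4, against 7098 in K1, 8858 in K2 and 5496 in Kx. The groups did not overlap, and K2 was again the KO library nearest to the controls. The mean went from 10201 ± 658 (SD, n = 4) to 7151 ± 1682 (SD, n = 3), or 70.1% of the control level. Irx2 changed by -0.51 log2 units (SE 0.16; adjusted p 0.0285 by DESeq2, 0.198 by edgeR). It was called in 2 of the 7 DESeq2 fits that each left out 1 library, without C4 (adjusted p 0.00867) and without K2 (0.000137), and was between 0.0773 and 0.203 in the other 5. The libraries also differed in Y-linked RNA: Ddx3y had 0, 0, 3232 and 3057 normalized counts in C1 to C4 and 610, 1308 and 4287 in K1, K2 and Kx. With the summed level of 4 Y-linked genes as a covariate Irx2 was not called (-0.48, adjusted p 0.0855) and Irx1 was (-0.72, 0.0137).

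Both testable members were therefore called lower in DESeq2 and 0 of them in edgeR. Over all genes DESeq2 called 4.51% of 17571, 2.27% lower and 2.24% higher, and edgeR called 1.05% of 19310, 0.647% lower and 0.404% higher. An unadjusted p under 0.05 was found in edgeR for both members, 0.00328 for Irx1 and 0.00791 for Irx2, and for 2033 genes in all. Non-overlap with lower KO values, which both genes showed, was found for 5.94% of all genes tested, and non-overlap with higher KO values for 6.07%, together 12%. Of all genes tested 5.24% had a log2 fold change as low as that of Irx1 and 8.50% as low as that of Irx2, and the median over all was 0.01. Without C4 both were again called lower, where DESeq2 called 5.28% of 17239 genes, 2.43% lower and 2.85% higher.

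**Figure D2:**
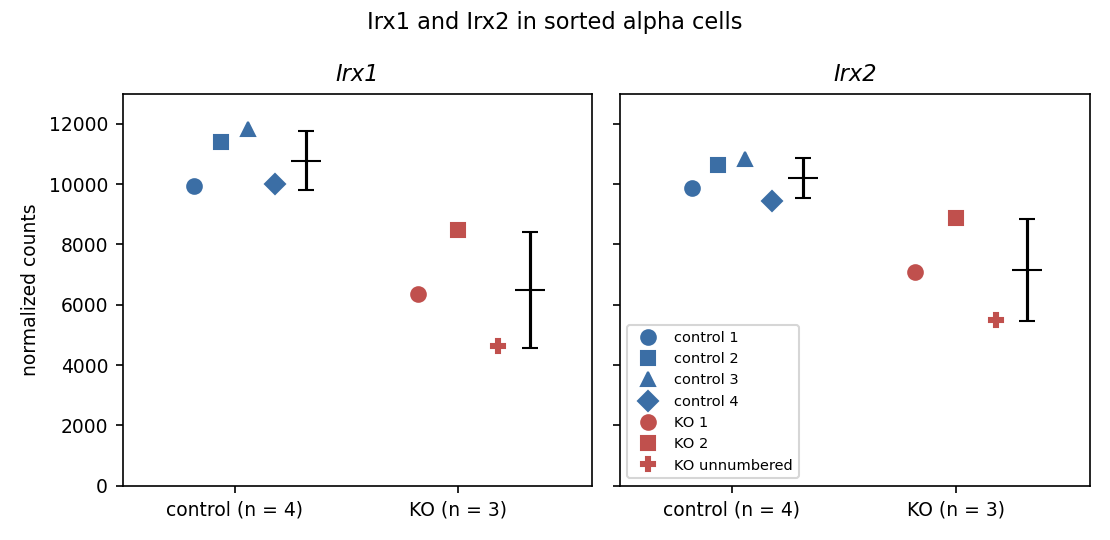
Normalized counts of Irx1 and Irx2 in each library, with a bar for the group mean and whiskers for 1 SD (control n = 4, KO n = 3). The KO libraries lie between 4629 and 8487 for Irx1 and between 5496 and 8858 for Irx2, below the lowest controls at 9920 and 9434.

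The depth of the fall differed between KO libraries in the same order for both genes. Relative to the control mean, Irx1 stood at 59.0% in K1, 78.8% in K2 and 43.0% in Kx. Irx2 stood at 69.6%, 86.8% and 53.9% in the same libraries. Glucagon (Gcg), at -1.04 log2 units (SE 0.15; adjusted p 6.76e-10 by DESeq2, 0.175 by edgeR), followed the same order, with 47.3%, 58.2% and 40.3%. Nkx2-2 transcripts did not, with 74.1%, 72.0% and 73.5%. With 3 libraries this order is a description and was not tested. Leaving out Kx gave the smallest changes, -0.54 for Irx1 and -0.36 for Irx2.

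A ratio of the 2 genes within a library does not depend on how libraries are scaled. The ratio of Irx1 to Irx2 counts was 1.004, 1.069, 1.089 and 1.058 in C1 to C4. In K1, K2 and Kx the ratio of Irx1 to Irx2 was 0.895, 0.958 and 0.842. Every control had more counts for Irx1 than for Irx2, and every KO library had fewer. These counts are not divided by length, so a ratio of 1 does not mark equal levels of the genes. On the log2 scale the mean ratio went from 0.08 ± 0.05 (SD, n = 4) to -0.16 ± 0.09 (SD, n = 3), a difference of -0.23 (exact permutation test, two-sided, p = 0.0286, the smallest of 35 splits; 0.114 after Benjamini-Hochberg adjustment over 4 ratios computed). The larger change of Irx1 thus held in 3 of 3 KO libraries. With 35 splits no p under 0.0286 is possible, so a lone separated ratio among 4 could not pass the threshold after adjustment. Set against Nkx2-2 counts within libraries, the groups overlapped for both genes: the ratio of Irx1 to Nkx2-2 ranged from 0.961 to 1.154 in controls and from 0.602 to 1.127 in KO libraries (exact p = 0.2, adjusted 0.4), and that of Irx2 to Nkx2-2 from 0.882 to 1.149 and from 0.714 to 1.176 (exact p = 0.686, adjusted 0.686). Nkx2-2 was itself lower in KO libraries, at 73.2% of the control level, so these ratios cannot show whether Irx1 or Irx2 fell.

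**Figure D3:**
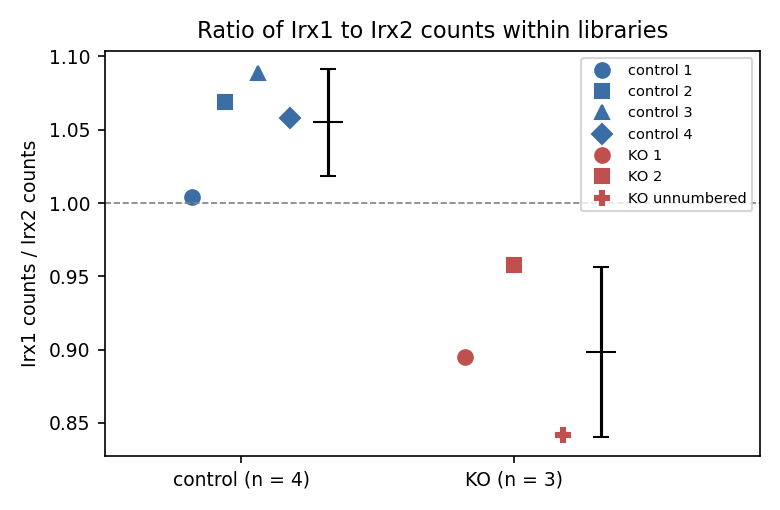
Ratio of Irx1 counts to Irx2 counts within each library, with bars for the group mean and 1 SD (control n = 4, KO n = 3); the dashed line marks equal counts. Controls lie between 1.004 and 1.089 and KO libraries between 0.842 and 0.958.

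Genes around the clusters were examined next, as all annotated genes within 500 kb of an Iroquois gene and with a mean of at least 10 normalized counts. There were 12 such genes near the chromosome 13 cluster and 14 near the chromosome 8 cluster, of which 9 and 10 received an adjusted p. DESeq2 called 1 of the 9 lower and 1 higher, and 0 of the 10 in either direction, against 4.51% over all genes tested. In edgeR 0 of these genes were called. The medians of the log2 fold change were 0.03 and 0.14.

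The gene called lower, Gm20554 (chromosome 13, 72626213 to 72628564, minus strand), is a long intergenic RNA transcribed away from Irx2, with 255 bases between the pair. It had 1389, 1494, 1731 and 1867 normalized counts in C1 to C4 and 1112, 1252 and 1181 in K1, K2 and Kx. The groups did not overlap. The mean of Gm20554 went from 1620 ± 218 (SD, n = 4) to 1181 ± 70 (SD, n = 3), or -0.46 log2 units (SE 0.15), at an adjusted p of 0.0402 in DESeq2 and 0.146 in edgeR. This call was lost without C2 (0.0560), C3 (0.199), C4 (0.110), K1 (0.361), K2 (0.0991) or Kx (0.157). The ratio of Gm20554 to Irx2 counts overlapped between groups, from 0.140 to 0.198 in controls and 0.141 to 0.215 in KO libraries (exact permutation test, two-sided, p = 0.6, adjusted 0.686).

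The stretch between Irx2 and Gm20554 is printed because both of its flanking transcripts were lower in KO libraries, and 232 bases before Irx4, a member with 2 counts in all, are printed for comparison. These are the bases upstream of the annotated starts in RefSeq (GRCm38.p6) and GENCODE, on the plus strand. RefSeq promoters of 3 of the 6 members were matched, those of Irx2, Irx3 and Irx4. Capitals mark GGGCGG, the GC box bound by the Sp and KLF families, and CCNCACCC, a KLF-like motif.
Irx2, chr13:72628570-72628819: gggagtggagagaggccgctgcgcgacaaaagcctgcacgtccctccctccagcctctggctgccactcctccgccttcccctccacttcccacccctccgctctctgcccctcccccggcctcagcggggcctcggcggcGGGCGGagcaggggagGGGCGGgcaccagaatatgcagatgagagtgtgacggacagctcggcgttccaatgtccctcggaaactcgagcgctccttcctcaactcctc
Irx4, chr13:73260247-73260478: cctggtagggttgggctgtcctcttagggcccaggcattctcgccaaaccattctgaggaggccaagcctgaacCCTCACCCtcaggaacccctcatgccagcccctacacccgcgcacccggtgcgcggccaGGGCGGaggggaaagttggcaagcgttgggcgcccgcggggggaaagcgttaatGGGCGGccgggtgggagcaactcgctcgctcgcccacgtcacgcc

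Motifs were searched on both strands of the RefSeq windows from 250 bases before to 50 after each start. GGGCGG occurred 2 times in the window of Irx2, 2 times in that of Irx4 and 0 times in that of Irx3, and 35.7% of 32851 windows held it. CCNCACCC occurred 0, 1 and 3 times in Irx2, Irx4 and Irx3, against 16.6% of windows. TNAAGTG, a motif like that bound by NKX2 factors, and TATAAA, the TATA box, occurred in none of the 3 windows and in 11.5% and 13.6% of all windows. The windows of Irx2 and Irx4 were rich in CpG, with 25 and 31 sites against a median of 7, and that of Irx3 held 14. These matches describe the letters of the windows only.

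The gene called higher, Slc6a19 (chromosome 13, 73679745 to 73704865, 410 kb from Irx4), encodes a neutral amino acid transporter. In normalized counts it had 26.1, 25.9, 36.6 and 13.7 in C1 to C4 and 80.2, 136 and 110 in K1, K2 and Kx. Slc6a19 changed by 2.11 log2 units (SE 0.48), at an adjusted p of 0.000689 in DESeq2 and 0.0649 in edgeR, and its adjusted p was 0.0703 without K2. Other genes on that side of Irx4, among them Tert, the telomerase catalytic subunit (0.03, adjusted p 0.999), and Slc12a7, a potassium chloride cotransporter (0.51, 0.0508), were not called. Near Irx3, the Fto mean was 3840 ± 209 normalized counts (SD, n = 4) against 4108 ± 336 (SD, n = 3) in KO (log2 fold change 0.10, adjusted p 0.930). Rpgrip1l, which shares its promoter region with Fto, stood at -0.10 (adjusted p 0.974). Beyond Irx6, Mmp2, a matrix metalloproteinase, had 11.9 ± 6.99 and 47.2 ± 18.5 normalized counts (1.95, adjusted p 0.0971). Also not called were Ndufs6 (-0.33), Mrpl36 (0.02), Lpcat1 (-0.20), Clptm1l (0.17) and Gm47836 (1.33) around the chromosome 13 cluster, and Lpcat2 (1.01), Ces1d (1.64), Gm45428 (-0.68), Gm45292 (0.98), Gm45289 (-0.12), Gm45294 (0.14) and Gm45293 (0.13) around the chromosome 8 cluster, on the log2 scale. Gm40999, Rpl9-ps4, Gm10263, 4831440D22Rik, Gm45290, Gm3235 and Slc6a2 received no adjusted p.

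**Figure D4:**
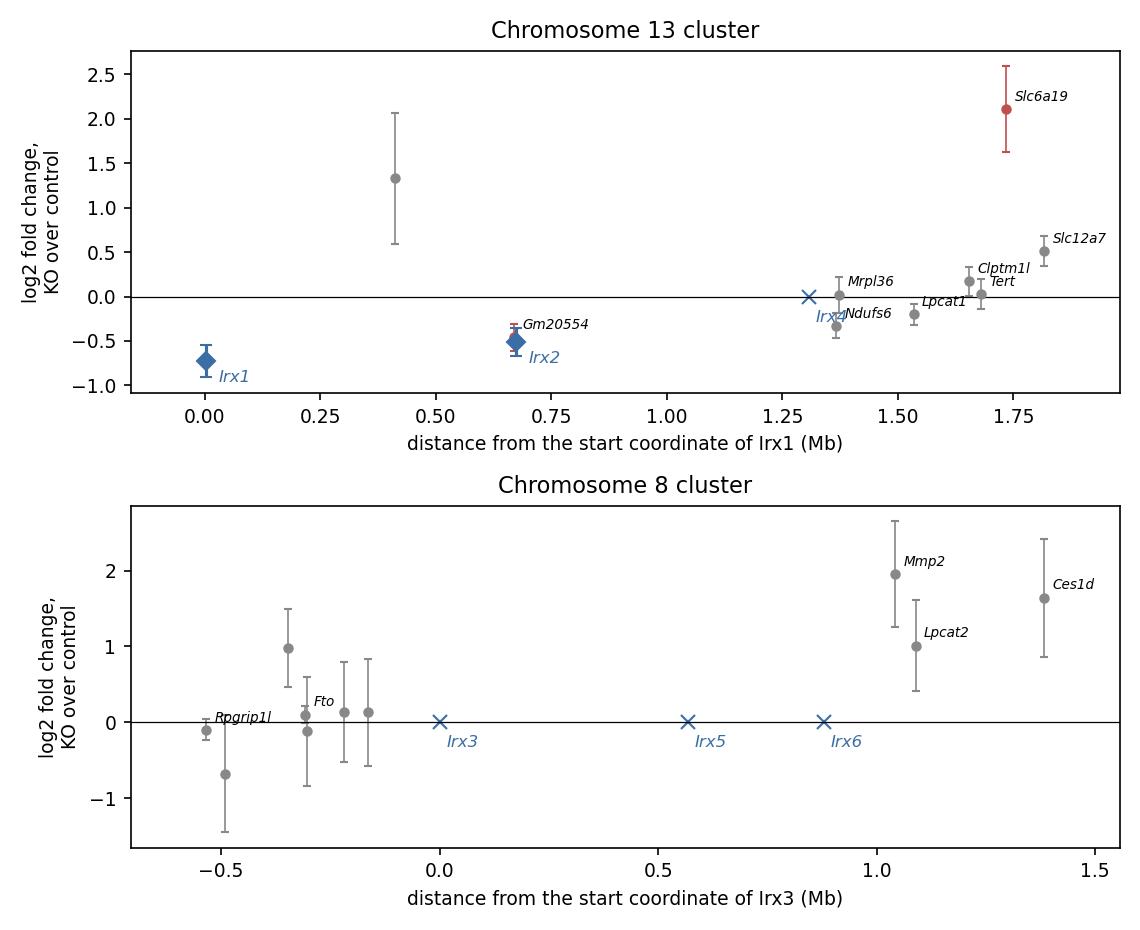
Log2 fold change (KO over control, DESeq2, whiskers 1 SE) of genes within 500 kb of the 2 Iroquois clusters, by distance in Mb from the start coordinate of Irx1 or Irx3. Blue diamonds are Irx1 (-0.73) and Irx2 (-0.51), blue crosses at 0 mark members with no fitted change, red points are called genes (Gm20554 at -0.46 and Slc6a19 at 2.11) and grey points are not called.

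The other TALE homeobox genes, whose products share the loop extension and in the PBX and MEIS families often bind DNA with Hox and other homeodomain partners, were taken as a fixed list. All 12 received an adjusted p, and their median log2 fold change was 0.05. DESeq2 called 1 of the 12 higher and 0 lower, against 4.51% of all genes tested in either direction. In edgeR 0 of the 12 were called, against 1.05% of all genes. Irx1 and Irx2 had the highest control levels per length of the class, above Meis2 at 13.2, Meis3 at 12.5 and Pbx2 at 9.90 CPM per kb. The gene called higher was Pbx3, whose controls held 980 to 1189 normalized counts and whose KO libraries held 1242 to 1731, or 0.51 log2 units more (SE 0.16), at an adjusted p of 0.0314 in DESeq2 and 0.152 in edgeR. Pbx3 was called in 2 of the 7 fits with a library omitted, without C4 and without K2, and had adjusted p-values of up to 0.333. Meis1 stood 0.51 log2 units above controls at an adjusted p of 0.110. The extremes among these 12 genes, Tgif1 at 1.16 (adjusted p 0.673) and Pbx4 at -0.37 (0.902), were not called.

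Among 14 alpha cell and islet transcription factors, 13 received an adjusted p, with a median of 0.14. DESeq2 called 1 lower and 1 higher, against 4.51% of all genes tested. In edgeR 1 was called, the gene that was lower. Isl1, a LIM homeodomain factor of all islet endocrine cells, rose: controls held 9793 ± 1027 (SD, n = 4) and KO libraries 13290 ± 1795 (SD, n = 3), or 0.44 log2 units more (SE 0.13), at an adjusted p of 0.0225 in DESeq2 and 0.169 in edgeR, and was called in 3 of the 7 fits with a library omitted.

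Pou3f4, a POU factor of alpha cells, had 521 ± 53.4 and 318 ± 115 normalized counts (-0.72, adjusted p 0.119). Neurog3, the progenitor factor upstream of endocrine Irx expression, had 279 ± 163 and 428 ± 87.8 (0.62, adjusted p 0.608).

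Cell type markers differed between the groups beside the Iroquois genes. Over all genes tested DESeq2 called 4.51%, 2.27% lower and 2.24% higher, and edgeR called 1.05%, which applies to each list below. Of 8 alpha cell markers 5 were lower (among them Gcg, Ttr, Slc38a5 and Slc7a2) and 0 higher in DESeq2 (median -0.61). In edgeR 3 of them were called. The summed normalized counts of the alpha cell markers ran from 6463211 to 8449302 in controls and from 2964674 to 4275964 in KO libraries. Gc, also an alpha cell marker, was not called (0.44, adjusted p 0.275). The 8 beta cell markers, 0 of them called, summed to between 301098 and 618057 in controls and between 439541 and 845077 in KO libraries. For 4 delta cell markers the sums were 196263 to 398978 and 355301 to 632402 with 1 called higher (Rbp4), and for 3 gamma cell markers 179628 to 402644 and 616600 to 784991 with 1 called higher (Ppy). Ppy alone gave 178540 to 401493 and 615185 to 783711 of the gamma cell sums, and the other gamma cell markers, Sertm1 (-0.13) and Aqp4 (0.05), were not called. Acinar markers summed to between 163 and 12258 in controls and between 1028 and 6059 in KO libraries, duct markers to 803 to 1322 and 1554 to 2515 with Spp1 called higher. Endothelial markers summed to 163 to 224 and 111 to 713, mesenchymal markers to 1346 to 3796 and 2172 to 4003, leukocyte markers to 962 to 1496 and 824 to 1013, and Schwann cell markers to 582 to 906 and 636 to 771. The lower leukocyte sum was that of C1qa, which was called lower (-0.82, adjusted p 0.0113). The other leukocyte markers, Cd74 (1.55, adjusted p 0.139), Cd68 (0.51, 0.905) and Ptprc (1.30, no adjusted p), were not called, and the list median was 0.51. No listed marker was at 0 in every library. The part of these cell types in the fall of Irx1 and Irx2 was not tested, and in bulk samples fewer alpha cells and less Irx RNA per cell cannot be told apart.

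Among 11567 protein-coding genes with a mean of at least 100 normalized counts, the 3 whose pattern over the 7 libraries was most like that of Irx1 were Slc25a30, a mitochondrial carrier, B230217C12Rik and Dbn1, which encodes the actin-binding protein drebrin. Their root mean square differences from Irx1, in log2 units after centring on the control mean, were 0.0885, 0.0909 and 0.121. The KO libraries entered this choice, so falls near those of Irx1 or Irx2 follow from how the genes were picked and are no separate result. In DESeq2 the log2 fold change was -0.65 for Slc25a30 at an adjusted p of 0.142, -0.80 for B230217C12Rik at 0.0387 and -0.65 for Dbn1 at 0.0140. For Irx2 the nearest were Homez, a homeobox and leucine zipper gene, Fam81a and Ipp, at 0.0663, 0.0669 and 0.0829. It was -0.53 for Homez at an adjusted p of 0.0491, -0.55 for Fam81a at 0.0370 and -0.44 for Ipp at 0.122, and 0 of these 6 genes were called in edgeR. Irx1 and Irx2 differed from each other by 0.164, which placed Irx2 at rank 15 for Irx1 and Irx1 at rank 96 for Irx2.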

How the data were processed

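RNA was sequenced from sorted tdTomato-positive alpha cells with a stranded total RNA kit (SMARTer, Takara; the labels also name polyA RNA), per the labels' protocols. The authors deposited whole-number counts per gene, with FastQC, STAR, featureCounts, DESeq2 and the build mm10 listed in the submitters' processing notes, where settings and versions are not given. All 55536 identifiers matched GENCODE M21 (GRCm38). The 4 control columns and KO columns 1 and 2 matched a title, and the remaining KO column was used without a number.

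KO was compared with control in DESeq2 1.42.0 under R 4.3.3, by its Wald test with default size factors, without covariates, after dropping genes with no count and with filtering tuned to 0.05. The series text names this tool. The quasi-likelihood test of edgeR 4.0.16 (TMM, default filter) is printed beside it. Coding sequences were aligned with MAFFT 7.526, and promoter sequences are from RefSeq. Ratios were compared by exact permutation over libraries. Alternatives covered the tool, size factors, filters, halved counts, covariates, a replicate block and each library left out.

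The members and lists were chosen with earlier results of these data known. Genes named are the 6 members, Nkx2-2, Gcg, genes within 500 kb of a member with a mean of at least 10, listed genes past the threshold or at the extremes, and the 3 genes most like each called member; other listed genes (Pou3f4, Meis1, Meis2, Meis3, Pbx2, Gc) were named for their roles after their values were seen, and some listed genes are not reported here.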

Additional observations from a re-analysis of the deposited data

How the results depend on the processing

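The log2 fold changes of Irx1 and Irx2 kept their sign under all 18 alternatives, between -0.97 and -0.54 for Irx1 and between -0.70 and -0.36 for Irx2, while the calls depended on tool and libraries. Irx1 was not called in edgeR (-0.73, adjusted p 0.127), in edgeR without C4 (-0.76, 0.105, an alternative added after the data were seen) or in 1 of 7 fits that left out 1 library. Irx2 was not called in edgeR (-0.51, 0.198), in edgeR without C4 (-0.54, 0.148), with independent filtering off (-0.51, 0.0548), with a Y-linked covariate (-0.48, 0.0855) or in 5 of 7 fits that left out 1 library. Those 7 fits gave -0.97 to -0.54 for Irx1 (adjusted p 3.69e-07 to 0.0513) and -0.70 to -0.36 for Irx2 (0.000137 to 0.203). The number of Iroquois genes called was 2 as reported, 0 in edgeR and in edgeR without C4, 1 with independent filtering off and with the Y-linked covariate, and 0 to 2 when 1 library was left out. Over all genes 792 were called, against 203 in edgeR, 249 in edgeR without C4, 1276 with the Y-linked covariate, and 430 (without K1) to 910 when 1 library was left out. With library totals as size factors the all-gene median went from 0.01 to 0.11 and the share of calls that were higher in KO from 49.7% to 69.7%, with Irx1 at -0.65 and Irx2 at -0.42, both still called. The share of calls that were higher was 38.4% in edgeR and 60.5% under the replicate block. The causes were not tested. The numbers 1 and 2 occur in both groups; deviations of same-numbered libraries correlated at 0.23 and 0.30, but K2 correlated best with C3 (0.41), so the numbers were not taken as pairs. With the replicate block over those 4 libraries 580 genes were called, with Irx1 at -0.54 (adjusted p 0.00013) and Irx2 at -0.37 (0.0254). Ddx3y had 0 normalized counts in C1 and in C2, against 610 in K1 and 1308 in K2. Genotype and Y-linked RNA therefore cannot be told apart in the fit with the replicate block. With the longest transcript as length, control levels per kb were 80.6 for Irx1 and 69.0 for Irx2. The chromosome 13 cluster held 99.98% to 99.99% of Iroquois counts throughout. No alternative is given for fold changes of Irx3 to Irx6, which were not reported. Depth limits Irx3 to Irx6, and the number of libraries limits Irx1 and Irx2.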
